A study of Mus musculus with 6 samples.

Results

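The genes described here encode 9 glycoproteins and proteoglycans of basement membranes: the laminin chains Lama2, Lama4, Lama5, Lamb2 and Lamc1, the nidogens Nid1 and Nid2, perlecan (Hspg2) and nephronectin (Npnt). They were chosen by symbol, as every probe set to which the platform annotation gives one of these names and no other. That gave 18 of the 22626 non-control probe sets on the array, for 9 of 12393 genes. Lung RNA came from ob/ob mice of strain B6.V-Lepob/J, which lack functional leptin in both groups because of a mutation in the leptin gene. All animals were females of about 1 month. The leptin group (3 arrays, replicates 1 to 3) received leptin and the saline group (3 arrays, replicates 1 to 3) received saline, each array standing for 1 animal per the labels. The sources used here do not give dose, route or duration. There was no mouse with an intact leptin gene among the samples, so the comparison is of hormone replacement with its vehicle in deficient animals.

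A basement membrane is a thin sheet of matrix beneath epithelium and endothelium and around muscle cells. Laminins, each a trimer of an alpha, a beta and a gamma chain, assemble into one network on the cell surface, and type IV collagen forms another. Nidogens and perlecan bridge the networks, while nephronectin sits in the sheet as a ligand for integrins. In the alveolus the epithelial and capillary basement membranes are largely fused, and the thin barrier they form is where gas exchange takes place.

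Before any result, 1 array had to be set apart. The log2 values of saline replicate 1 had a Pearson correlation of 0.438 to 0.447 with the remaining 5 arrays, which among themselves reached 0.973 to 0.978. These correlations run across probe sets, and probe sets are not independent replicates. Its 10th percentile of intensity was 57.1, against 16.4 to 19.3 elsewhere, and the median of 45 spiked-in control probe sets was 22.6 times the level of the remaining arrays. The lung markers Sftpc (surfactant protein C of alveolar type II cells) and Pecam1 (endothelium) read 4087 and 90.8 there, against 23964 to 29732 and 2476 to 2736 on the other 5, whereas Scgb1a1 of airway club cells read 68880 against 18473 to 22288. Values are therefore given first for 3 leptin and 2 saline arrays ("5 arrays"), and then with saline replicate 1 ("6 arrays").

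Across the 5 arrays the basement membrane genes differed little between leptin and saline. Of 18 probe sets, 17 passed a limit on low signal that left out the lowest 30% of the array, and they cover all 9 genes. Their log2 changes (leptin minus saline, of intensity plus 22 so that dim values do not dominate) ran from -0.20 for Lama5 to 0.35 for Npnt. In limma 0 of 17 passed the adjusted threshold of 0.05, with 1 at an unadjusted p under 0.05, and the adjusted p was 1.00 for each. Over all 15838 tested probe sets 7 passed, or 0.0442%, and 728 (4.6%) had an unadjusted p under 0.05. The criterion stated for the series asks for a 1.5-fold change, p under 0.05 and enough pairwise comparisons beyond that fold, 6 of 9 with all 6 arrays. For the 5 arrays the last limit was scaled here to 4 of 6, and folds were taken on intensity plus 22. By this version 0 of 17 qualified, beside 78 of all tested probe sets (0.492%). With the replicate number as a block, the 7 calls over all probe sets fell to 0, and 0 of the 17 passed there as well. Leptin replicate 1 shares its number with no saline array among the 5, so the block takes it out of the contrast. The block estimates equal those without leptin replicate 1, so pairing was not tested apart from the loss of that array.

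**Figure D1:**
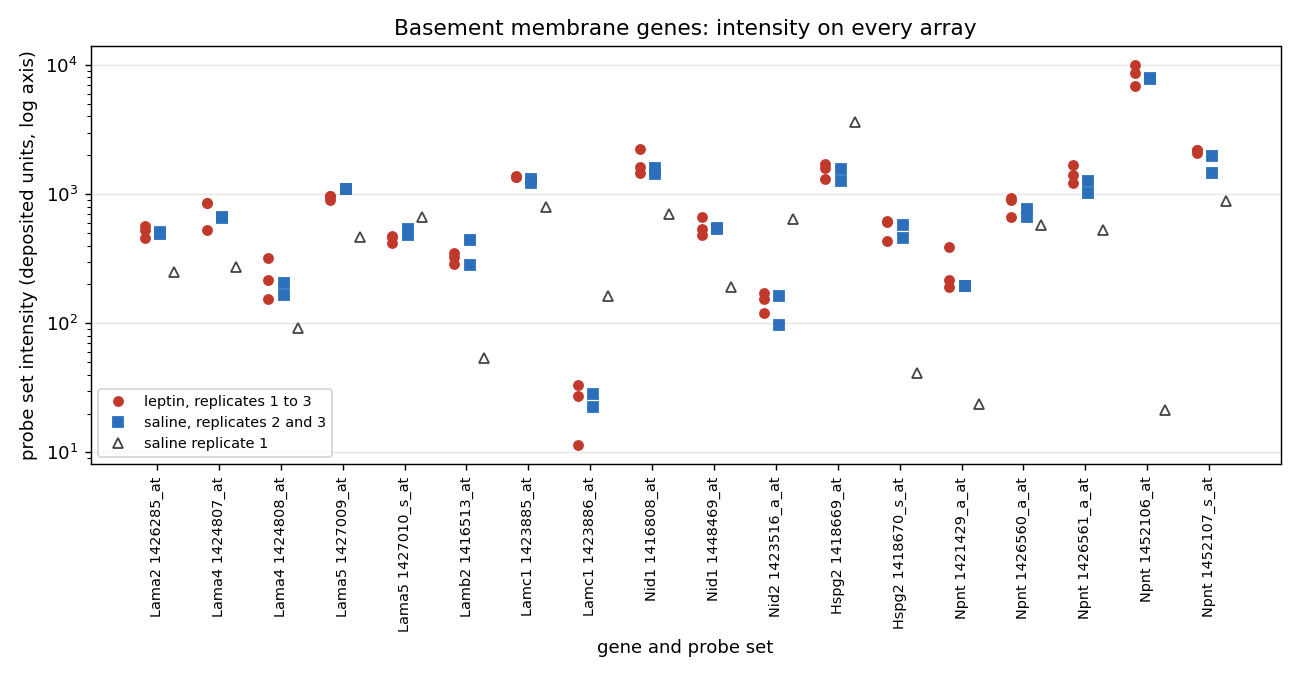
Probe set intensity (deposited units, log axis) on every array for the 18 probe sets of the 9 genes: circles are leptin replicates 1 to 3, squares saline replicates 2 and 3, and open triangles saline replicate 1. Circles and squares of a probe set lie within a span of at most 2.89-fold, and each triangle lies outside it, narrowly for Npnt 1426560_a_at (574.8) and widely for Npnt 1452106_at (21.4).

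Leptin signals through a receptor that activates STAT transcription factors, so the letters TTCNNNGAA, the core of a STAT site, were looked for in the 250 bases before the start of each member gene, on both strands (the letters are their own reverse complement). RefSeq promoters of build GRCm38.p6 were at hand for 6 of the 9 genes (Lama2, Lama5, Lamb2, Nid1, Hspg2 and Npnt). One of the 6, Lamb2, holds a match, beside 7.02% of all 32851 promoters in the table. The letters GGGCGG of the GC box, read on both strands, occur in 4 of the 6 (Lama5, Nid1, Hspg2 and the first of the 2 Npnt promoters in the table, the second holding 0) and in 32.7% of all. The counts out of 6 are of genes, whereas the shares of all are of promoters. The 4 promoters with GC boxes are also rich in G and C, at 64.4% to 74.0% beside a median of 52.4% for all. The second Npnt promoter, without a GC box, is as rich at 69.6%. Those of Lamb2 and Lama2, also without one, are at 43.6% and 47.2%. The stretches below show the STAT match, whose gene did not pass the test, and the upstream bases of Npnt, the gene with the smallest p. Both run 5′ to 3′ on the gene's strand, with TTCNNNGAA in capitals for Lamb2 (chr9:108479627-108479686, plus strand) and GC boxes in capitals for Npnt (chr3:132950292-132950411, minus strand).
Lamb2: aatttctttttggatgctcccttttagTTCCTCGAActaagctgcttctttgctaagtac
Npnt: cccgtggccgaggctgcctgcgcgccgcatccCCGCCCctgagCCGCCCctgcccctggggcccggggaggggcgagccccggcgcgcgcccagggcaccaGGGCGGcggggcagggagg
The Lamb2 match begins 208 bases before the start of the gene. A match of letters is a description and not a binding site, and the Lamb2 groups overlapped, with an interval for the ratio of leptin to saline from 0.67 to 1.25.

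Laminin alpha chains set the identity of a laminin trimer and carry its binding sites for cells. Lama2, the chain of muscle and nerve basement membranes whose loss causes muscular dystrophy, read 454.4, 524.2 and 563.4 on leptin replicates 1 to 3 and 513.1 and 494.8 on saline replicates 2 and 3. The saline pair lay inside the leptin range. The means were 514 ± 55.2 (SD, n = 3) and 504 ± 12.9 (SD, n = 2), a ratio of 1.02 with a 95% interval from 0.80 to 1.29. Ratios and intervals here come from limma, on intensity plus 22, and the intervals are not adjusted for the number of probe sets. The variance behind each interval is moderated toward a trend over all tested probe sets, so it does not rest on that probe set's arrays alone.

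Lama4, the alpha chain of endothelial and other vascular basement membranes, was read by 2 probe sets. One (1424807_at) gave 856.9, 849.5 and 529.7 with leptin and 670.2 and 649.5 with saline. Leptin replicate 3 was thus the lowest of the 5 and leptin replicates 1 and 2 the highest. The other (1424808_at) gave 317.9, 217.5 and 154.8 with leptin and 204.4 and 164.8 with saline, again with the extremes at leptin replicates 1 and 3. The log2 changes were 0.14 ± 0.20 and 0.24 ± 0.27 (limma estimate ± SE), so the spread within the leptin group exceeded the difference between the groups. Leaving out 1 array moved them between 0.024 and 0.36 and between 0.00089 and 0.47.

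Lama5, the broadly expressed alpha chain of the mature alveolar basement membrane, was the one alpha chain with lower values after leptin on each of its probe sets. On 1427009_at the leptin arrays read 971.8, 906.5 and 965.3, below both saline arrays at 1094.8 and 1088.5. On 1427010_s_at they read 466.7, 418.1 and 476.4, below 483.9 and 539.6. The groups did not overlap on either probe set, but the differences were small. The log2 changes were -0.20 ± 0.13 and -0.17 ± 0.15, with intervals for the ratio of 0.71 to 1.06 and 0.71 to 1.13. Unadjusted p was 0.157 and 0.30 in limma.

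Of the beta and gamma chains, Lamb2 belongs to the laminins of vessel walls, kidney filter and neuromuscular junction, and Lamc1 is the gamma chain shared by most laminin trimers. Lamb2 read 287.1, 351.5 and 325.4 with leptin and 437.9 and 282.1 with saline. The 2 saline arrays bracketed the leptin group, and the log2 change of -0.13 ± 0.20 turned to 0.17 without saline replicate 2. Lamc1 (1423885_at) read 1349.9, 1348.3 and 1386.6 with leptin and 1321.0 and 1226.9 with saline. All leptin values were above both saline values, yet the means of 1362 ± 21.7 (SD, n = 3) and 1274 ± 66.5 (SD, n = 2) gave a ratio of only 1.07, with an interval from 0.88 to 1.30. A second Lamc1 probe set (1423886_at) read 11.4 to 33.0 on the 5 arrays. It was below the limit for testing, and its log2 change without that limit was -0.075.

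Nidogens bind the laminin gamma chain on one side and type IV collagen on the other. Nid1 (1416808_at) read 1634.6, 1469.5 and 2219.0 with leptin and 1590.4 and 1435.2 with saline. Leptin replicate 3 stood highest, and the other 4 arrays overlapped. Its second probe set (1448469_at) did not single out that array, reading 668.0, 485.3 and 539.2 with leptin and 550.0 and 533.2 with saline. The log2 changes were 0.21 ± 0.17 and 0.045 ± 0.17. Nid2, a homologue of Nid1 with overlapping functions, had 1 probe set, at 172.4, 154.0 and 119.9 with leptin and 162.1 and 97.0 with saline. The groups overlapped, and the interval for its ratio was wide, from 0.76 to 1.71.

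Perlecan, the product of Hspg2, carries heparan sulfate chains that hold growth factors in the matrix. On 1418669_at it read 1584.8, 1705.6 and 1304.8 with leptin and 1562.8 and 1263.9 with saline. On 1418670_s_at it read 436.5, 608.5 and 617.4 with leptin and 573.5 and 455.7 with saline. The groups overlapped on both. The ratios were 1.08 (interval 0.85 to 1.38) and 1.07 (0.80 to 1.43), so the 2 probe sets gave nearly the same change.

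Npnt encodes nephronectin, a ligand of the integrin with the Itga8 alpha chain that is known from mouse kidney development and is also made in lung. It was read by 5 probe sets, and each had a positive log2 change, from 0.094 to 0.35. The probe set 1452107_s_at read 2071.8, 2189.3 and 2200.4 with leptin, above saline at 1985.4 and 1451.6. Its change of 0.34 ± 0.15 was the only one among the 17 with an unadjusted p under 0.05 (limma, 0.0448), and saline replicate 3 set much of it, since without that array it was 0.12. On 1426561_a_at the leptin arrays read 1398.2, 1692.3 and 1212.1 and the saline arrays 1255.4 and 1011.6. There leptin replicate 3 lay below saline replicate 2, and the change was 0.33 ± 0.17 (unadjusted p = 0.0771).

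The other 3 Npnt probe sets overlapped between groups. The reading on 1452106_at was 10006.7, 6813.4 and 8721.3 with leptin and 7937.0 and 7814.5 with saline. Both saline values fell inside the leptin range, and the change was 0.094 ± 0.15. On 1421429_a_at, leptin replicate 1 at 390.3 stood above 216.8 and 189.5 of the other leptin arrays and above 193.8 and 193.5 with saline. The estimate of 0.35 ± 0.27 was 0.060 without that array. On 1426560_a_at the values were 929.6, 893.7 and 667.8 with leptin and 766.2 and 668.0 with saline, a change of 0.19 ± 0.17. Averaged over its 5 probe sets, Npnt was at 0.26 ± 0.13 (limma on gene means, unadjusted p = 0.0787, adjusted p = 0.941 over 9365 genes).

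Taking the 17 tested probe sets as a list, 14 were higher and 3 lower with leptin, with a median log2 change of 0.11. Over all tested probe sets 50.3% were higher and the median was 0.0012. The 17 are not independent, since 5 of them read Npnt and Lama4, Lama5, Nid1 and Hspg2 have 2 each. Groups did not overlap on 4 of 17 (2 higher, for Lamc1 and Npnt, and 2 lower, both for Lama5), which is 23.5%. Among all tested probe sets 19.6% did not overlap, 9.92% higher and 9.66% lower, so the share is near the background. The median standard error, moderated by limma, was 0.17 for these probe sets and 0.18 for all tested ones. Before moderation the median residual SD was larger for these probe sets, at 0.229 against 0.185.

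**Figure D2:**
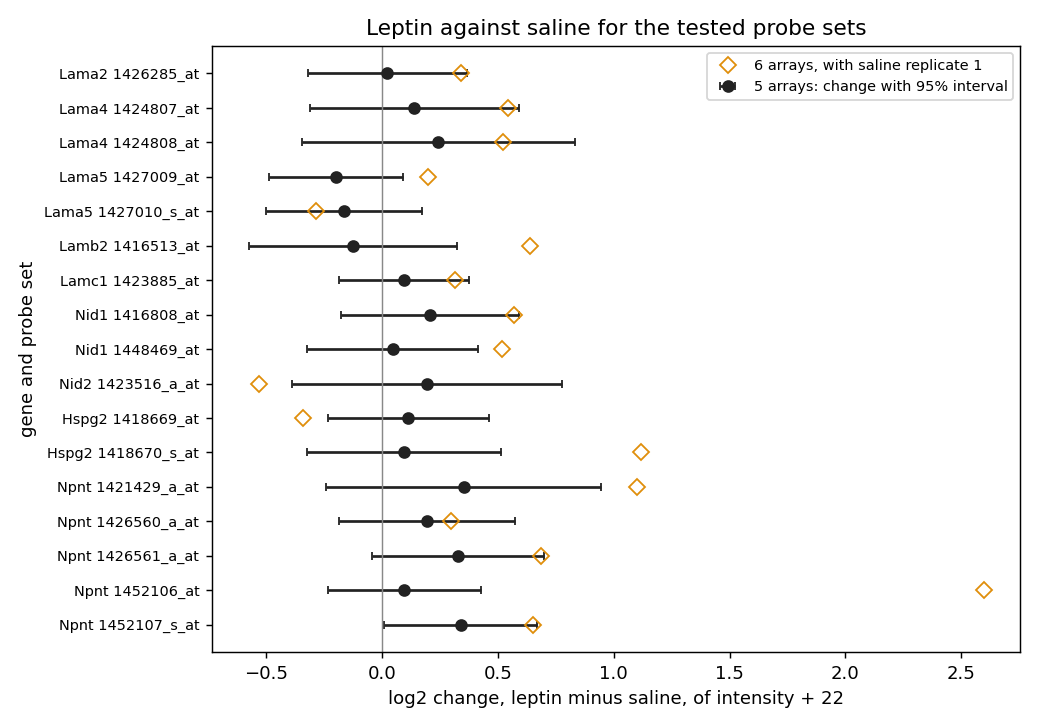
Log2 change, leptin minus saline, of intensity + 22 for the 17 tested probe sets: filled circles with bars are the estimates on 5 arrays with 95% limma intervals, and open diamonds the estimates on 6 arrays. The bars cross 0 for all but Npnt 1452107_s_at, and several diamonds lie far from the circles, with Npnt 1452106_at at 2.60.

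With saline replicate 1 included, again 0 of 17 passed the limma threshold (0 also at an unadjusted p under 0.05), beside 0% of all tested probe sets (61, or 0.385%, at an unadjusted p under 0.05). By the criterion of the series, here 6 of 9 pairwise comparisons, 0 of 17 qualified beside 0.202% of all. Leptin and saline did not overlap on 3 of 17 (Lamc1 and Npnt 1452107_s_at higher, Lama5 1427010_s_at lower), beside 9.1% of all tested probe sets (5% higher and 4.1% lower). The estimates changed a great deal. The median rose to 0.52, and Lamb2 and Lama5 1427009_at turned from negative to positive (0.64 ± 0.67 and 0.20 ± 0.38), while Nid2 and Hspg2 1418669_at turned from positive to negative (-0.53 ± 0.65 and -0.34 ± 0.45). Lama2 was then at 0.34 ± 0.34, the Lama4 probe sets at 0.54 and 0.52, Lamc1 at 0.32 ± 0.29 and the Nid1 probe sets at 0.57 and 0.52. Npnt ranged from 0.30 on 1426560_a_at to 2.60 ± 2.01 on 1452106_at.

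These shifts followed from readings on 1 array that went different ways for probe sets of the same gene. All 17 tested probe sets read outside the range of the other 5 arrays on saline replicate 1, 14 below it and 3 above it. Of all tested probe sets 47.0% were below and 41.9% above. On saline replicate 1, 4 readings lay under the 10th percentile of the array (57.1), so no fold is given for them: 21.4 for Npnt 1452106_at, 23.6 for Npnt 1421429_a_at, 41.4 for Hspg2 1418670_s_at and 54.3 for Lamb2. The remaining Npnt probe sets read 523.8 to 880.0, with 574.8 on 1426560_a_at as a ratio of 0.75 to the median of the other arrays. The other Hspg2 probe set read 3643.9, a ratio of 2.33. For Lama5 the readings were 464.2 and 662.9, ratios of 0.48 and 1.39. Nid2 read 647.1, a ratio of 4.20. The untested Lamc1 probe set was also above the others, at 162.6, while 1423885_at read 796.2, a ratio of 0.59.

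**Figure D3:**
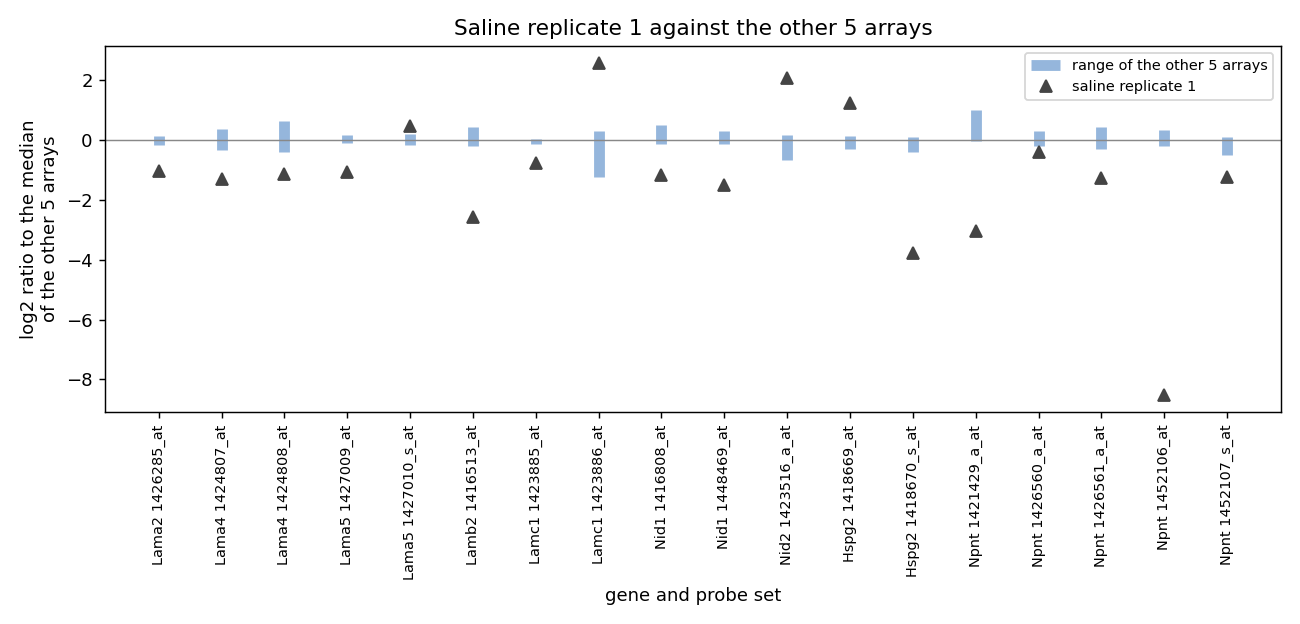
Log2 ratio of saline replicate 1 (triangles) to the median of the other 5 arrays for the 18 probe sets, with bars for the range of those 5 arrays. Every triangle lies outside its bar, mostly below, and Lama5, Lamc1 and Hspg2 have triangles on both sides of 0. Triangles of Lamb2, Hspg2 1418670_s_at, Npnt 1421429_a_at and Npnt 1452106_at rest on readings under that array's 10th percentile.

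The suffix of a probe set tells what it was designed to read. One ending in _a_at reads several transcripts of a gene, and one ending in _s_at can also read transcripts of other genes, so Lama5 1427010_s_at, Hspg2 1418670_s_at and Npnt 1452107_s_at are less specific by design. The Npnt value with the smallest p was of this kind.

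Other basement membrane genes and their partners were described in the same way, from 57 listed genes of which 48 were on the array under 1 symbol and 47 were tested, with 80 probe sets. Of these 80, 0 passed the limma threshold in either direction on 5 arrays (8 at an unadjusted p under 0.05), beside 0.0442% of all tested probe sets, and 0 on 6 arrays. On 5 arrays 51 were higher and 29 lower, with a median log2 change of 0.073, and groups did not overlap on 19 (23.8%, beside 19.6%). Type IV, XV and XVIII collagens had the most one-sided list, with 11 of 12 probe sets higher and a median of 0.15. Col15a1, a collagen linking basement membranes to the tissue beneath, had the smallest p there, at 154.0, 222.1 and 212.6 with leptin and 135.5 and 54.6 with saline (0.98 ± 0.31, adjusted p = 0.961), followed by Col4a5 at 0.33 ± 0.14. A second Col4a5 probe set was the 1 lower in the list, at -0.024 ± 0.23.

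The other laminin chains were split, with 3 probe sets higher and 4 lower. Lama3, the alpha chain of epithelial anchoring laminin, read 1171.4, 1073.2 and 789.0 with leptin and 758.2 and 647.0 with saline. The groups did not overlap, and the change was 0.50 ± 0.18 (limma adjusted p = 1.00). Lamc3, a gamma chain, went the other way, at -0.26 ± 0.16 and -0.20 ± 0.18 on its 2 probe sets. Among other proteins of the sheet 10 of 12 probe sets were higher, led by Fbln1 (fibulin, a laminin and nidogen binder) at 0.55 ± 0.19 and 0.31 ± 0.14 on its 2 probe sets and then Egfl6, a relative of nephronectin, at 0.33 ± 0.19.

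Receptors for the matrix had 18 probe sets higher and 14 lower. The heparan sulfate carrier Sdc2 was at 0.52 ± 0.19 and 0.50 ± 0.20 on 2 of its 3 probe sets and at 0.095 ± 0.15 on the third, where the groups overlapped. Next by p was Dag1, the laminin receptor dystroglycan, whose 4 probe sets were at 0.32 ± 0.20, 0.12 ± 0.13, 0.062 ± 0.15 and -0.085 ± 0.12. Enzymes that build or cut the matrix were balanced, at 9 higher and 8 lower. Mmp2, a protease of type IV collagen, had the lowest p of all 80 probe sets. It read 1183.6, 1074.5 and 1276.6 with leptin against 661.9 and 667.7 with saline, a change of 0.80 ± 0.14 that missed the threshold (limma adjusted p = 0.137). Its second probe set was at 0.49 ± 0.14, and Hs2st1, a heparan sulfate sulfotransferase, was at -0.20 ± 0.17, 0.13 ± 0.18 and 0.029 ± 0.16 on its 3 probe sets.

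With saline replicate 1 included, 52 of the 80 probe sets were higher and 28 lower, with a median of 0.30. Col15a1 and Lama3 were at 0.96 and 0.49, close to their values on 5 arrays. The Col4a5 probe sets were at 0.28 and 0.89, and Mmp2 was at 1.12 and 1.57. The Sdc2 probe sets were at 1.03, 0.37 and -0.36, those of Fbln1 at 0.70 and -0.24, and those of Dag1 at 0.72, 0.11, 0.55 and 0.099. Lamc3 was at -0.50 and -0.58, Egfl6 at -0.0079 and Hs2st1 at -0.031, 0.27 and 0.80.

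**Figure D4:**
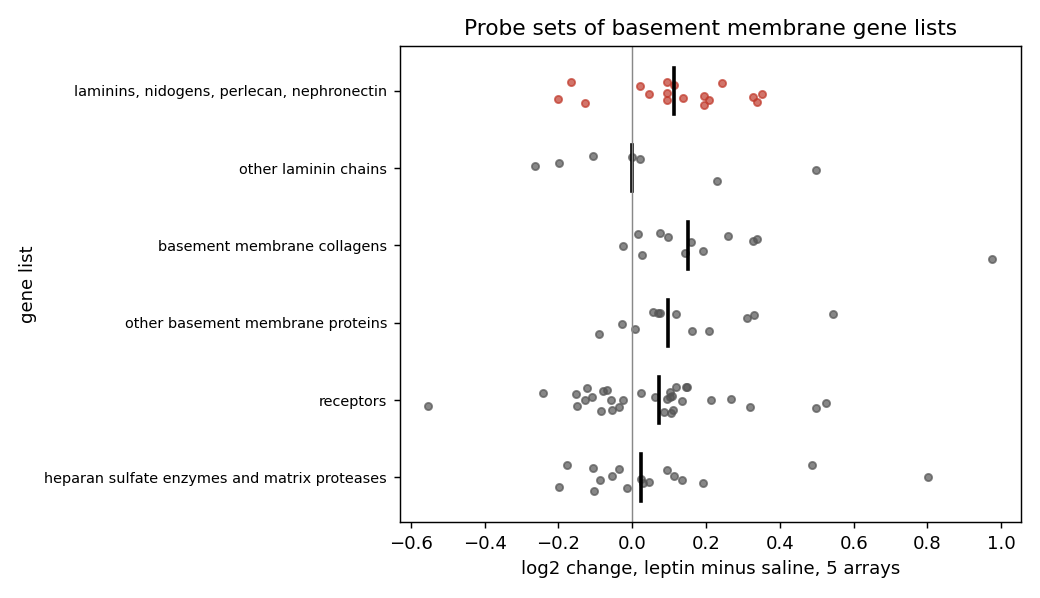
Log2 change, leptin minus saline on 5 arrays, for tested probe sets of each gene list, with 1 point per probe set and a bar at the median. The laminin, nidogen, perlecan and nephronectin probe sets lie between -0.20 and 0.35, inside the span of the other lists.

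Basement membranes are made by several cell types, and in whole lung fewer cells of a type and less RNA per cell cannot be told apart. Several marker lists moved with the groups on 5 arrays. In that of fibroblasts 13 of 14 tested probe sets were higher with leptin, with a median log2 change of 0.38. Of these 14, 0 passed the limma threshold and 7 had an unadjusted p under 0.05, beside 0.0442% and 4.6% of all tested probe sets. The summed intensity of the fibroblast list was 40198 to 41863 with leptin. It was 34409 for saline replicate 2, 28862 for saline replicate 3 and 13698 for saline replicate 1. Erythroid markers moved the other way, lower on 3 of 3 tested probe sets, with a median log2 change of -0.80. Of these 3, 1 passed the limma threshold and 2 had an unadjusted p under 0.05, beside the same shares of all. Their sums, over all 5 erythroid probe sets, were 3390 to 4463 with leptin. On saline replicates 2 and 3 they were 9598 and 7954, and on saline replicate 1 the sum was 1564.8. Mesothelial markers were higher on 0 of 3 tested probe sets. Summed over all 4 of the list, they read 3733.9 to 4045.6 with leptin and 4395.5 and 5097.5 with saline. Endothelial markers were higher on 10 of 15 (summed 46797 to 53632 with leptin, 49302 and 49407 with saline). Alveolar type I markers were higher on 9 of 14, alveolar type II markers on 5 of 10 and leukocyte markers on 5 of 6. Smooth muscle and pericyte markers were higher on 6 of 13. Airway club and ciliated markers were higher on 1 of 5, heart muscle markers on 1 of 6 and adipocyte markers on 2 of 2. The part of these cell types in the values above was not tested.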

How the data were processed

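Total RNA of 6 lungs was measured on Affymetrix Mouse 430A arrays after small-sample T7 amplification, per the labels' protocols. The deposited values are linear intensity values, 1 column per array. The software is not given in the sources used here. The mean between the lowest and highest 2% is 500.10 to 500.14 on each array, so the authors' deposited values had been scaled per array. Of 22690 probe sets, 64 controls were left out. Genes came from the platform annotation (20380 probe sets with 1 symbol, 691 with several, 1555 with none). Values were turned into log2(intensity + 22.0), the 10th percentile, which understates changes of dim probe sets. The lowest 30% by mean log2 value were left out, and limma 3.58.1 (R 4.3.3) was run on 15838 probe sets (trend, two-sided, Benjamini-Hochberg over all tested, threshold 0.05). The text names every member probe set, and of each further list the 2 genes with the smallest p. The series names no test for its criterion, and a 2-sample test with pooled variance was used. The members, lists and tests were chosen with earlier results of these data known.

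The labels do not say that replicate numbers pair animals. For numbers 1, 2 and 3, the deviations of the leptin and the saline array from their group means had correlations of 0.144, 0.108 and 0.103. Arrays of unlike number had -0.147 to 0.0491. Deviations within a group sum to 0, and saline replicate 1 is among them, so these correlations cannot decide whether numbers are pairs. The block on replicate number was therefore run only as an alternative. P-values measure the spread between these arrays, and their number limits the precision. The fits were tested on simulated data. Alternatives were other normalizations, pseudocounts, filters and variance priors, the block, array weights, a threshold of 0.10, gene means and leaving out each array.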

Additional observations from a re-analysis of the deposited data

How the results depend on the processing

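On 5 arrays (main counts over all tested probe sets 1 higher and 6 lower), both counts were 0 with a common median, quantile normalization, no filter, no trend, a pseudocount of 1 and the replicate block, and a threshold of 0.10 gave 5 higher and 8 lower. Leaving out 1 array more gave 0 to 1 higher and 0 to 2 lower, with the lone saline array then taken to vary like the leptin arrays. The criterion of the series gave 242 without a filter and 72 to 145 with 1 array left out. On 6 arrays (0 and 0), array weights gave 3 higher and 5 lower, and leaving out each array gave 0 to 1 and 0 to 6. The criterion of the series gave 114 without a filter, and leaving out each array gave 16 to 89. Counts of member probe sets past the limma threshold and of the further basement membrane probe sets were 0 under every alternative run. By the criterion of the series 0 to 1 member qualified with 1 array left out of the 6, the 1 being Npnt 1452107_s_at without saline replicate 2.

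Some signs of member changes turned. On 5 arrays the replicate block gave -0.079 for Nid1 1448469_at and -0.031 for Npnt 1452106_at, and it changed no member call. Both values equal those without leptin replicate 1, which the block takes out of the contrast. With 1 array left out, ranges that crossed 0 were -0.037 to 0.26 and -0.064 to 0.25 for Hspg2 1418669_at and 1418670_s_at, -0.044 to 0.10 for Lama2, -0.43 to 0.17 for Lamb2, -0.079 to 0.14 for Nid1 1448469_at, -0.12 to 0.51 for Nid2 and -0.031 to 0.25 for Npnt 1452106_at. Among the others, Nid1 1416808_at ran from 0.036 to 0.33, Lamc1 from 0.043 to 0.15, Lama5 from -0.22 to -0.17 and from -0.24 to -0.091, and the Npnt probe sets 1421429_a_at, 1426560_a_at, 1426561_a_at and 1452107_s_at from 0.060 to 0.54, 0.099 to 0.34, 0.18 to 0.48 and 0.12 to 0.56. On 6 arrays, array weights (0.0257 for saline replicate 1, 1.64 to 2.98 for the others) turned Hspg2 1418669_at to 0.083, Lama5 1427009_at to -0.20, Lamb2 to -0.16 and Nid2 to 0.11. Gene means put Hspg2 at 0.39 and Lama5 at -0.044, each an average of 2 probe sets of opposite sign (-0.34 and 1.12, 0.20 and -0.29). With 1 array left out these ran from -0.64 to 0.11 (Hspg2 1418669_at), -0.20 to 0.40 (Lama5 1427009_at), -0.13 to 1.17 (Lamb2) and -1.05 to 0.19 (Nid2). The lowest limma adjusted p of any member under any alternative was 0.492. The cause of these changes was not tested.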
